A study of Mus musculus with 6 samples.

Results

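Genes of the JAK-STAT pathway were examined in cultures of enteric glia (enteric glial cells, EGCs), the support cells of the nervous system in the intestine. They were the 9 genes named Stat2, Stat3, Stat5a, Stat5b, Stat6, Socs1, Socs2, Socs3 and Cish, taken by symbol from 46603 gene identifiers with deposited counts. Of these, 5 encode STAT transcription factors and 4 encode the feedback inhibitors SOCS1, SOCS2, SOCS3 and CIS. Poly(A) RNA was sequenced from 6 libraries, 3 of untreated control EGCs and 3 of EGCs given 100 ng/ml lipopolysaccharide (LPS, a component of the bacterial cell wall) for 12 h. All cells came from neurospheres of the whole intestine of C57BL/6J embryos taken at embryonic day 14.5, were expanded with growth factors and were then grown attached in serum. The labels give no genotype other than the strain and do not say whether replicates of a group were separate cultures, so p-values measure the spread between these libraries, which may be technical. The aim of the sequencing was to learn what EGCs secrete that may act on monocytes and macrophages.

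STAT proteins wait in the cytoplasm until a cytokine receptor, through its Janus kinase (JAK), phosphorylates them. They then pair, enter the nucleus and bind promoters. Among the genes they switch on are those of the SOCS family, whose proteins block the kinase, cover the receptor or send it for degradation, and so close the loop. LPS itself signals through Toll-like receptor 4 and not through a JAK, and reaches STATs by way of the interferons and cytokines that a cell releases. In enteric glia, as in astrocytes, cytokines that act through STATs are known inducers of a reactive state.

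Libraries held 18775316 to 23664312 counts. Levels are given as CPM, the counts of a gene per 1e6 counts of the library after its size was corrected for composition with trimmed mean of M-values (TMM). A gene with 3 counts or fewer was taken to be at the floor of detection (0.124 to 0.167 CPM, depending on the library, which covers counting error only). The glial gene Sox10 was at 73.8 to 101 CPM, and 9 of 10 enteric glia markers were above the floor in every library. The cultures also held transcripts of other cells: 7 of 7 mesenchymal, 7 of 7 smooth muscle and 11 of 12 macrophage markers were above the floor in every library, against 1 of 4 lymphocyte markers, with the other 3 at the floor throughout. Libraries numbered 3 stood apart in both groups. The summed level of the macrophage markers was 3878 and 4974 CPM in control replicates 1 and 2 and 11592 CPM in control replicate 3, and it was 4025, 5230 and 19239 CPM in LPS replicates 1, 2 and 3. Between groups, 7 of 7 smooth muscle markers were called lower after LPS, against 6.71% of all tested genes. Their summed level was 2425 to 2659 CPM in control and 683 to 953 CPM in LPS libraries. Of 12 macrophage markers 1, Adgre1, was called higher, which is near the share over all tested genes (9.09%). The part of these shifts in the results below was not tested. In bulk RNA, a change in the number of cells of a type and a change in RNA per cell cannot be told apart.

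After LPS, 4 of the 9 genes rose: Socs1 8.54-fold, Stat2 7.89-fold, Socs3 5.45-fold and Cish 1.95-fold (edgeR quasi-likelihood test, adjusted p under 0.05 over all 15226 genes tested). Across all tested genes, 9.09% were called higher and 6.71% lower (1384 and 1022 genes). These counts fell to 379 and 112 without control replicate 2, to 470 and 194 without control replicate 1, to 619 and 224 without LPS replicate 1 and to 523 and 162 without LPS replicate 2. Their balance turned with the scaling: 1050 higher and 1589 lower with upper-quartile factors, and 986 and 2054 with library size alone. Of the 5 STAT genes 1, Stat2, was called, against 3 of the 4 inhibitors. Called lower by edgeR were 0 of the 9, also 0 at an unadjusted p under 0.05, and 0 by DESeq2, limma-voom and the edgeR exact test. At an unadjusted p under 0.05, 7 were higher. The median log2 fold change of the 9 genes was 0.45, and that of all tested genes was -0.02. All LPS libraries lay above all control libraries for 6 of the 9, an arrangement seen in 19.3% of tested genes. All 9 had passed the filter on low counts.

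Same-numbered control and LPS libraries correlated in their deviations from group means (r = 0.513, 0.334 and 0.613 for numbers 1, 2 and 3). LPS replicate 2 correlated better with control replicate 1 (0.419), so numbers 1 and 2 were not told apart as pairs. A fit with the replicate number as a block, which rests on this pairing, called 7 of the 9 genes higher, against 15.4% of all tested genes. The 3 genes added by the block were Stat3, Stat5a and Stat6. Without both libraries numbered 3, 7 genes were called higher and 1, Socs2, lower, where 22.6% and 20.4% of tested genes were called in these directions.

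**Figure D1:**
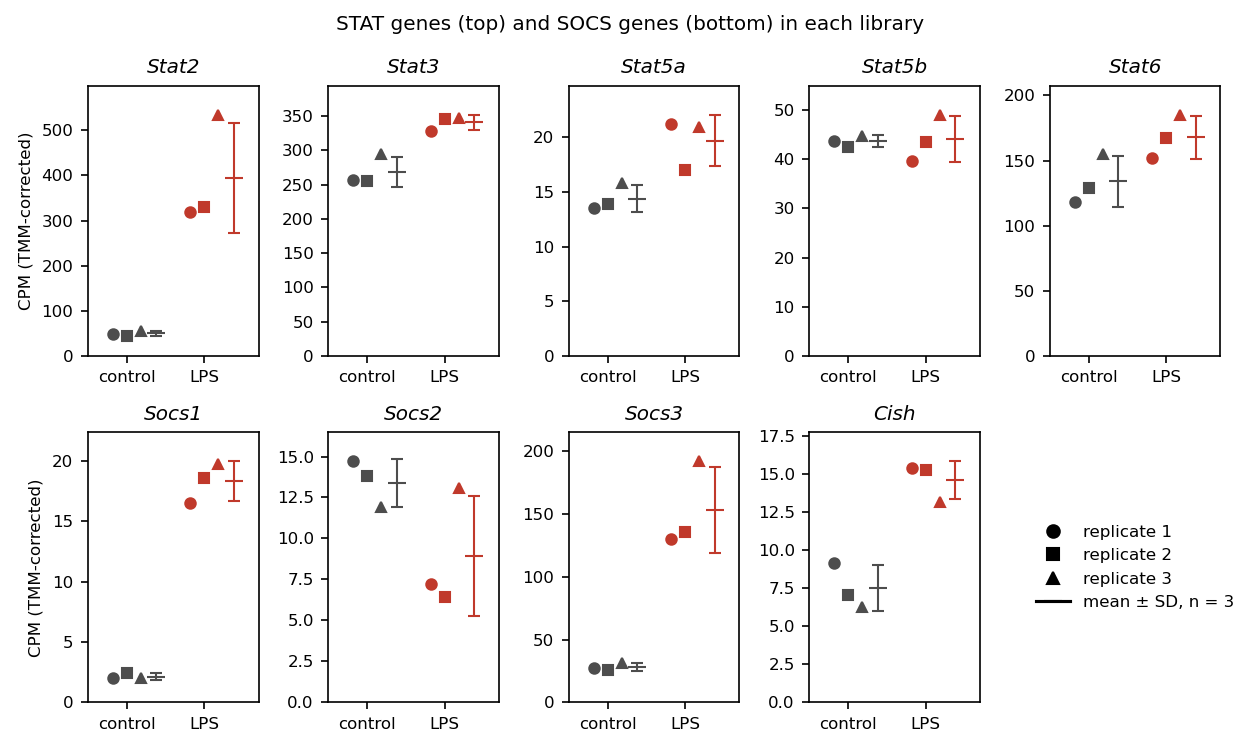
CPM of each of the 9 genes (vertical axes, linear, from 0) in the 3 control and the 3 LPS libraries, with a symbol for each replicate number and the mean ± SD beside the points. Stat2, Stat3, Stat5a, Socs1, Socs3 and Cish show no overlap between groups, while LPS replicate 3 lies among the control libraries for Socs2.

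Stat2 (ENSMUSG00000040033, chr10:128270559-128292849, plus strand, GRCm38) encodes the STAT that joins interferon regulatory factor 9 in the complex formed after type I interferon. It was at 49.2, 44.4 and 56.3 CPM in control replicates 1, 2 and 3 and at 318, 330 and 534 CPM in LPS replicates 1, 2 and 3. The lowest LPS library was far above the highest control, and LPS replicate 3 was the highest of all. The means were 49.9 ± 5.98 and 394 ± 121 CPM (SD, n = 3), a log2 fold change of 2.98 ± 0.24 (SE, 95% interval 2.38 to 3.58, edgeR adjusted p = 0.00179). By mean CPM, Stat2 moved from the 70.8th to the 97.6th percentile of tested genes. The spread among the LPS libraries was carried by replicate 3, in which the macrophage markers were also highest. The part of those cells in the level was not tested. Without both libraries numbered 3, the log2 fold change of Stat2 was 2.82 (edgeR adjusted p = 1.5e-06).

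Stat3 (ENSMUSG00000004040, chr11:100885098-100939540, minus strand) encodes the STAT that answers the interleukin 6 family and interleukin 10. Control libraries were at 257, 256 and 295 CPM and LPS libraries at 328, 346 and 348 CPM. The groups did not overlap, yet the difference was small against an already high control level: 269 ± 21.8 and 341 ± 10.8 CPM (SD, n = 3), a log2 fold change of 0.34 ± 0.09 (SE, 95% interval 0.13 to 0.55). The edgeR adjusted p was 0.0506, and with the replicate block it was 0.0229 at the same log2 fold change. Of 15 alternative settings 5 called the gene, with log2 fold changes of 0.18 to 0.42 over all of them.

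Stat5a (ENSMUSG00000004043, chr11:100859351-100885169, plus strand) and Stat5b (ENSMUSG00000020919, chr11:100780731-100850724, minus strand) are neighbouring paralogs that act downstream of growth hormone, prolactin and several colony-stimulating factors and interleukins. Stat5a was at 13.5, 13.9 and 15.8 CPM in control and at 21.2, 17 and 20.9 CPM in LPS libraries, again without overlap. Its log2 fold change was 0.45 ± 0.13 (SE, 95% interval 0.14 to 0.77, edgeR adjusted p = 0.0674), and with the replicate block the edgeR adjusted p was 0.0369. Stat5b was at 43.6, 42.5 and 44.8 CPM in control and at 39.7, 43.5 and 49 CPM in LPS libraries. Here the LPS libraries spread around the controls on both sides. The log2 fold change was 0.01 ± 0.10 (SE, edgeR adjusted p = 0.943), with a 95% interval from -0.22 to 0.25, and its sign turned under 4 of the 15 alternatives.

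Since a ratio of 2 genes within a library does not depend on the scaling between libraries, the paralogs were also compared directly. Stat5a counts were 0.31, 0.326 and 0.352 times the Stat5b counts in control and 0.534, 0.391 and 0.427 times in LPS libraries. The ratio was 1.36-fold higher after LPS without overlap between groups (exact permutation test over libraries, two-sided, p = 0.1, which is the smallest p that 3 against 3 libraries allow; adjusted over 3 such ratios, 0.1). Of the 50-base words in Stat5b transcripts, 11% also occur in Stat5a, and 8.21% of those of Stat5a occur in Stat5b. A read that lies wholly within such a stretch matches both genes, and how such reads were counted is not known.

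Stat6 (ENSMUSG00000002147, chr10:127642986-127660957, plus strand) encodes the STAT of interleukins 4 and 13. It was at 118, 129 and 155 CPM in control and at 152, 167 and 185 CPM in LPS libraries. The highest control library exceeded the lowest LPS library, but within each replicate number the LPS library was the higher. The log2 fold change was 0.33 ± 0.13 (SE, 95% interval 0.00 to 0.65, edgeR adjusted p = 0.154). With the replicate block it was 0.33 ± 0.06 (SE, edgeR adjusted p = 0.0192), the single call for Stat6 among the 15 alternatives.

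Turning to the inhibitors, Socs1 (ENSMUSG00000038037, chr16:10782240-10785536, minus strand) encodes a protein that blocks the JAK catalytic site directly and restrains interferon signalling. It was scarce in control libraries, with 47, 55 and 48 counts or 1.99, 2.43 and 1.98 CPM, and was at 16.5, 18.6 and 19.7 CPM in LPS libraries. Both groups were tight, and the values of LPS replicate 3 did not stand apart. The means were 2.14 ± 0.258 and 18.3 ± 1.64 CPM (SD, n = 3), a log2 fold change of 3.09 ± 0.15 (SE, 95% interval 2.72 to 3.47, edgeR adjusted p = 0.0003). All 15 alternatives called Socs1 higher, at log2 fold changes of 2.94 to 3.20.

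Socs3 (ENSMUSG00000053113, chr11:117966079-117970047, minus strand) encodes the inhibitor that binds the gp130 chain shared by receptors of the interleukin 6 family. It was at 27.1, 25.6 and 31.4 CPM in control and at 130, 136 and 192 CPM in LPS libraries. As for Stat2, LPS replicate 3 was the highest. The means were 28 ± 3.02 and 153 ± 34.3 CPM (SD, n = 3), a log2 fold change of 2.45 ± 0.18 (SE, 95% interval 1.99 to 2.90, edgeR adjusted p = 0.00136). Without both libraries numbered 3 it was 2.36 (edgeR adjusted p = 2.02e-06), and all 15 alternatives called the gene higher.

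Socs1 counts were 0.0734, 0.0952 and 0.0632 times the Socs3 counts in control and 0.127, 0.137 and 0.103 times in LPS libraries. The ratio was 1.59-fold higher after LPS, without overlap (exact permutation test, two-sided, p = 0.1, the smallest possible; adjusted 0.1).

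Cish (ENSMUSG00000032578, chr9:107296026-107302784, plus strand) encodes CIS, which competes with STAT5 for its docking sites on receptors and is a known target gene of STAT5. It was at 9.2, 7.04 and 6.28 CPM in control and at 15.4, 15.3 and 13.2 CPM in LPS libraries. The groups did not overlap, and in both the library numbered 3 was the lowest. The means were 7.51 ± 1.51 and 14.6 ± 1.25 CPM (SD, n = 3), a log2 fold change of 0.96 ± 0.18 (SE, 95% interval 0.53 to 1.39, edgeR adjusted p = 0.0208). Leaving out control replicate 2, LPS replicate 1 or LPS replicate 2 ended the call, with adjusted p-values of 0.101, 0.0766 and 0.0865 in edgeR, each time at a log2 fold change of 0.93. Cish shares 740 exon bases with the antisense genes Gm17040 and Gm17041, which held at most 2 counts in a library.

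Socs2 (ENSMUSG00000020027, chr10:95385362-95417180, minus strand) encodes an inhibitor best known for limiting growth hormone signalling. It was at 14.7, 13.8 and 11.9 CPM in control and at 7.21, 6.46 and 13.1 CPM in LPS libraries. LPS replicates 1 and 2 lay below every control, while LPS replicate 3 lay among them. The log2 fold change was -0.59 ± 0.29 (SE, 95% interval -1.30 to 0.13, edgeR adjusted p = 0.228). Without LPS replicate 3 it was -0.98 (edgeR adjusted p = 0.0122), in a fit where 9.13% of tested genes were called lower. Without both libraries numbered 3 it was -1.03 (edgeR adjusted p = 0.000969). That fit was added after seeing the data and called 20.4% of tested genes lower. Without LPS replicate 1 or 2 the fall was weaker, at -0.45 and -0.40 (edgeR adjusted p = 0.446 and 0.469). With the replicate block it was -0.65 (edgeR adjusted p = 0.157, 95% interval -1.41 to 0.12). The macrophage markers were highest in LPS replicate 3, and their part in its Socs2 level was not tested.

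Cish and Socs2 were also compared as a ratio within each library. Cish counts were 0.625, 0.511 and 0.53 times those of Socs2 in control and 2.13, 2.37 and 1 times in LPS libraries. The ratio was 3.11-fold higher after LPS, without overlap (exact permutation test, two-sided, p = 0.1, the smallest possible; adjusted 0.1).

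**Figure D2:**
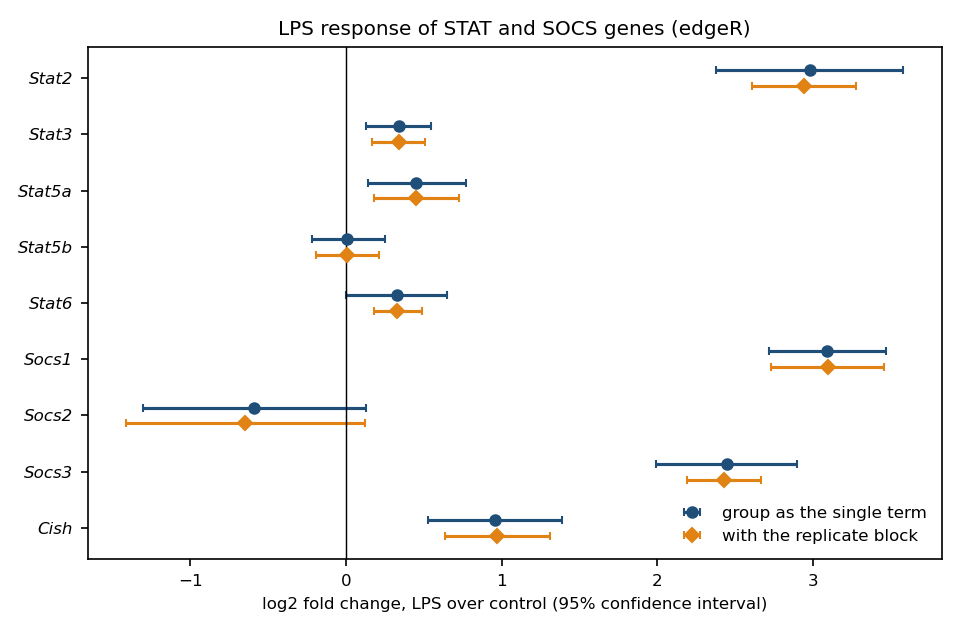
Log2 fold change of LPS over control (horizontal axis) with its 95% confidence interval for each gene, from edgeR with the group as the single term (circles) and with the replicate block (diamonds). The intervals of Stat2, Socs1, Socs3, Cish, Stat3 and Stat5a lie clear of 0 in both fits. The lower end of the Stat6 interval is at 0.00 without and at 0.18 with the block, and Stat5b stays centred on 0. The Socs2 interval crosses 0 in both, from -1.30 to 0.13 without and from -1.41 to 0.12 with the block.

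To compare levels between genes, CPM was divided by the summed length of each gene's exons in kilobases. In control EGCs, the level per kilobase was highest for Stat6 (30.4 ± 4.42) and Stat3 (28.3 ± 2.29), whose library values overlapped. Socs3 (9.7 ± 1.04), Stat2 (8.43 ± 1.01) and Stat5b (7.88 ± 0.208) followed, each overlapping the next in the order. Stat5a (2.02 ± 0.172) lay apart, Socs2 (1.41 ± 0.152) and Cish (1.17 ± 0.235) overlapped, and Socs1 (0.735 ± 0.0888 CPM per kilobase, SD, n = 3) was the lowest of the 9.

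After LPS, the order per kilobase opened with Stat2 (66.5 ± 20.4) and Socs3 (52.8 ± 11.9), which overlapped, ahead of Stat6 (38.2 ± 3.75) and Stat3 (35.8 ± 1.13), which overlapped too. Then came Stat5b (7.96 ± 0.85), Socs1 (6.29 ± 0.564), Stat5a (2.76 ± 0.33), Cish (2.28 ± 0.194) and Socs2 (0.938 ± 0.384 CPM per kilobase, SD, n = 3). Among these last, only Stat5a and Cish touched. The order depends on the exons counted: over the principal transcript alone, Socs2 was at 6.05 per kilobase in control, above Stat5a at 3.7, and Stat3 at 44.6 was above Stat6 at 35.5.

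Summed over the 5 STATs, the level was 71.8, 73.3 and 86 CPM per kilobase in control and 133, 140 and 180 in LPS libraries. Stat2 made up 10.9% ± 0.669 of this sum in control and 43.4% ± 5.7 after LPS (SD, n = 3). The shares of Stat3 (36.8% ± 0.854 and 24% ± 3.29) and Stat6 (39.4% ± 1.98 and 25.5% ± 1.93) were lower after LPS although their own levels were not, since shares of a sum must give way to the member that grows. The 4 inhibitors summed to 13, 12.2 and 13.8 CPM per kilobase in control and to 53.8, 56.6 and 76.7 in LPS libraries. Socs3 was the main one in both, at 74.4% ± 3.9 and 84.5% ± 1.88, or at 53.8% ± 5.32 and 79.3% ± 1.77 with principal transcript lengths (SD, n = 3). Socs1 went from 5.68% ± 1.02 to 10.2% ± 1.26 of the sum (with principal transcript lengths, from 3.62% to 8.48%). Socs2 went from 10.9% ± 1.61 to 1.47% ± 0.304 (with principal transcript lengths, from 29.7% to 5.21%). These sums and shares are given as descriptions.

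**Figure D3:**
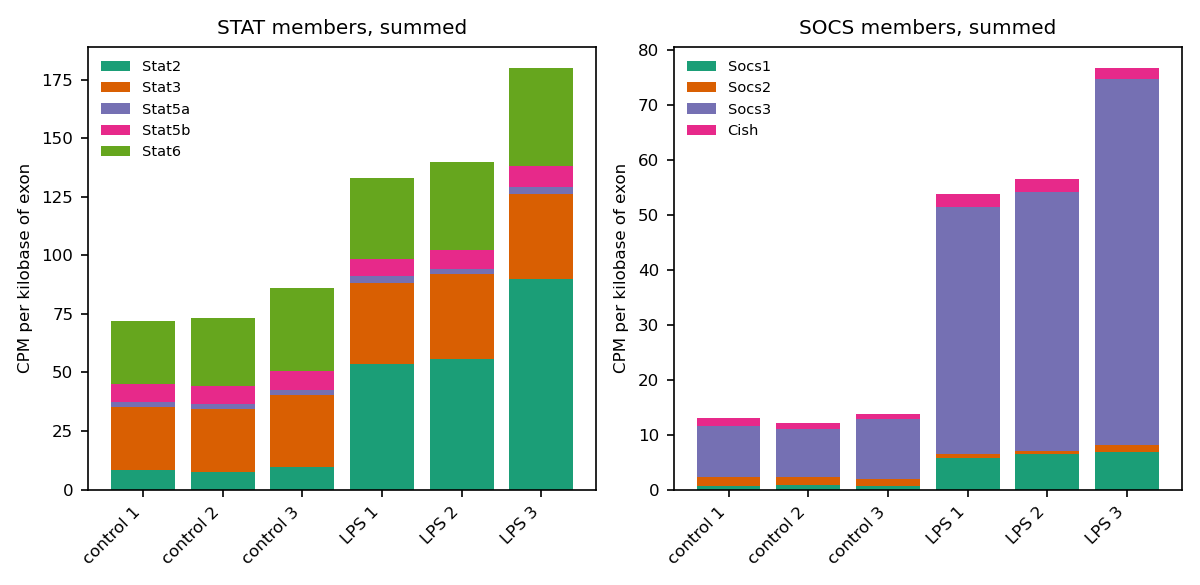
Level per kilobase of exon (vertical axis, CPM per kilobase, stacked from 0) of the 5 STAT genes (left) and the 4 SOCS family genes (right) in each of the 6 libraries. The growth of the left stacks is mostly Stat2, from 10.9% to 43.4% of the sum, and that of the right stacks mostly Socs3.

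The promoters of 8 of the 9 genes, each the 250 bases before and the 50 bases after a RefSeq start (GRCm38.p6), were searched on both strands for the letters of 3 known sites. The GAS site TTCNNNGAA is bound by STAT pairs. A form with a longer spacer, TTCNNNNGAA, is preferred by STAT6. The interferon-stimulated response element (ISRE), read as TTTCNNTTTC or GAAANNGAAA, is bound by the complex that holds STAT2. No entry was at hand for Socs2. The 4 genes with a match were the 4 called higher without the replicate block, whereas of the 7 called with it 4 had a match. The stretches around the matches are shown so that the letters can be read, in the direction of the gene and with the matched letters in capitals.
Stat2 promoter, chr10:128270248-128270337, plus strand: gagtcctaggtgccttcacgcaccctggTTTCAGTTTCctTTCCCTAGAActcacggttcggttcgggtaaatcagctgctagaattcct
Socs1 promoter, chr16:10785564-10785659, minus strand: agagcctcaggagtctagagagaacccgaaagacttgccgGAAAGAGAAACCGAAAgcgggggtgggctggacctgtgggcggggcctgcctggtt
Socs3 promoter, chr11:117969472-117969560, minus strand: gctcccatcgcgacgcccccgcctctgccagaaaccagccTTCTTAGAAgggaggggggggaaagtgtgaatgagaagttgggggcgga
Cish start region, chr9:107296656-107296685, plus strand: gttTTCCTGGAAagTTCTTGGAAatctgtc

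In Stat2, an ISRE match began at position -222 from the start and a long-spacer match at position -210. Socs1 held 2 overlapping ISRE matches, at positions -83 and -77. Socs3 held a GAS match at position -154, and Cish held 2 GAS matches, at bases 1 and 12 after the start, in an untranslated exon of the GENCODE annotation. The other matches lay in no annotated exon of their gene. In the promoters of Stat3, Stat5a, Stat5b and Stat6 none of these letters occurred, which says nothing on sites outside the window. Of 32851 mouse promoters of this length, 8.3% held the GAS letters, 6.95% the long-spacer form and 3.44% an ISRE. A match of letters is a description, no binding was measured, and the coincidence of matches and calls was not tested.

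The wider pathway was then read from 9 lists of genes placed by their role around the STATs. Among ligands, 9 of 14 tested cytokines that activate STATs rose, against 9.09% of all tested genes, with a median log2 fold change of 2.69 over the list. The count was 4 to 10 without 1 library, the 4 being without control replicate 2, where 379 genes in all were called higher. It was 5 where at least 10 counts in every library were asked for. Il27, Csf2 and Csf3 were at the floor in control, and Il10 was at 0.127 to 0.289 CPM there. These passed the filter on low counts through LPS libraries alone. Their rise was thus built into their being tested, and the 9 of 14 and the median lean on them. Csf3, a ligand that signals through STAT3, was at the floor in every control library and at 32.5, 43.4 and 20.4 CPM in LPS libraries, at least 251-fold higher against a floor of 3 counts per library. Csf2, a ligand of STAT5, was likewise at the floor in control and at 23.2, 27.1 and 0.576 CPM in LPS libraries, so LPS replicate 3 barely showed it (edgeR adjusted p = 0.0314, and up to 0.136 without one of the libraries other than LPS replicate 3). Clcf1, a ligand of the interleukin 6 family, rose from 12.6 ± 1.62 to 30.8 ± 2.33 CPM (SD, n = 3, edgeR adjusted p = 0.00341). The ligands at the head of the STAT2 and STAT6 branches were not tested for lack of counts: Ifnb1 had 17 counts in LPS replicate 3 and 0 in the others, Il4 at most 1, and Ifng and Il13 0 in all.

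Of 22 tested receptor subunits 6 rose and 2 fell (median log2 fold change 0.50), where 9.09% and 6.71% of all tested genes did, so that the 2 are near the share over all genes, and with the replicate block 12 rose and 3 fell, in a fit where 15.4% of all tested genes were called higher and 14.9% lower. Without control replicate 1 the counts were 3 and 0, without control replicate 2 they were 1 and 0, and without LPS replicate 1 or 2 none of the list was called lower. Il2rg, the common gamma chain, was at 29.6, 32.2 and 65.5 CPM in LPS against 2.88, 3.19 and 6.61 CPM in control libraries (log2 fold change 3.32, edgeR adjusted p = 0.0112, lost without control replicate 1 or 2 at 0.055 and 0.0668). Il13ra1, a chain of the interleukin 13 receptor, rose from 34 ± 5.3 to 129 ± 39.8 CPM (SD, n = 3, edgeR adjusted p = 0.0093, and 0.0529 and 0.063 without control replicate 1 or 2). Il7r fell, by 2.11 as a log2 value (adjusted p = 0.0291 in edgeR, and 0.0557 to 0.117 without control replicate 1 or 2 or LPS replicate 1 or 2).

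Of the 4 kinases 2 rose (9.09% over all tested genes), and 1 did with upper-quartile factors, library size alone or no filter. Jak2 was at 52.2, 52.3 and 59.6 CPM in control and at 397, 422 and 214 CPM in LPS libraries, with LPS replicate 3 the lowest of the LPS group (log2 fold change 2.65 ± 0.28 SE, edgeR adjusted p = 0.00371). Jak1 was at 319 ± 12.9 and 403 ± 26.2 CPM (SD, n = 3), and its log2 fold change was 0.34 (edgeR adjusted p = 0.0477). Leaving out any library other than LPS replicate 3 ended this call, at up to 0.172. Tyk2, a kinase of the type I interferon receptor, was at 41.2 ± 6.91 and 65.8 ± 15.9 CPM (SD, n = 3, edgeR adjusted p = 0.0786, and 0.00617 with the replicate block).

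Of the other SOCS genes, Socs4, Socs5, Socs6 and Socs7, 1 passed the test and was lower (6.71% over all tested genes), and the median log2 fold change was -0.08. Socs6 fell by 0.51 on the log2 scale, from 49.7 ± 4.87 to 34.8 ± 1.04 CPM (SD, n = 3, edgeR adjusted p = 0.0212), a call lost without control replicate 2, LPS replicate 1 or LPS replicate 2 at 0.083 to 0.108. Among 11 inhibitors of other families 2 rose (9.09% over all tested genes), and with the replicate block 5 rose (15.4%) and 1, Sh2b3, fell (14.9%). Usp18, which shuts off the type I interferon receptor, rose from 2.3 ± 0.552 to 211 ± 61.2 CPM (SD, n = 3, edgeR adjusted p = 0.0003), and Ptpn2, a phosphatase of JAKs and STATs, from 23.2 ± 0.457 to 41 ± 2.64 CPM (SD, n = 3, edgeR adjusted p = 0.00328).

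Known target genes of each STAT were counted last. All 16 listed targets of the complex of STAT2 and IRF9 rose, with a median log2 fold change of 5.69, and 14 to 16 were called in fits without 1 library. Irf9, the partner of STAT2, rose from 28.5 ± 2.17 to 119 ± 0.697 CPM and Irf7 from 4.56 ± 0.551 to 638 ± 274 CPM (SD, n = 3, edgeR adjusted p = 0.000157 and 0.000417). Mx1 was at 20.9, 26.5 and 194 CPM in LPS libraries and at 0.212 to 0.289 CPM in control (edgeR adjusted p = 0.0141, and 0.072 and 0.0811 without control replicate 1 or 2). It passed the filter on low counts through LPS libraries alone. Of 14 tested STAT3 targets 12 rose, against 9.09% of all tested genes, with a median log2 fold change of 1.49. They included the acute-phase gene Saa3, from 16.3 ± 10.9 to 12049 ± 1311 CPM (SD, n = 3), Lcn2, at 1645, 1643 and 264 CPM in LPS libraries, and Osmr, a receptor chain for oncostatin M, from 148 ± 7.99 to 320 ± 56.6 CPM (SD, n = 3). Their edgeR adjusted p-values were 0.00254, 0.0055 and 0.00828, the last of which was 0.0504 and 0.0595 without control replicate 1 or 2.

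Of 9 tested STAT5 targets 1 rose and 2 fell, with a median log2 fold change of -0.17. The 1 called higher (11.1%) is near the share over all tested genes (9.09%). The 2 called lower are above their share (6.71%) but are too few to be a result about this list. With the replicate block 3 rose and 3 fell (15.4% and 14.9% over all tested genes), without LPS replicate 3 the counts were 3 and 2, and without control replicate 1 or 2 or LPS replicate 1 or 2 they were 1 and 1. Pim1, a kinase that is also listed among STAT3 targets, rose from 26.6 ± 1.21 to 69.1 ± 6.07 CPM (SD, n = 3, edgeR adjusted p = 0.000878). Igf1, a growth factor gene that growth hormone induces through STAT5, fell from 279 ± 68.5 to 97.3 ± 13 CPM (SD, n = 3, edgeR adjusted p = 0.00849). The cell cycle gene Ccnd1 fell from 462 ± 95.2 to 198 ± 27.8 CPM (SD, n = 3, edgeR adjusted p = 0.0137, and 0.0511 to 0.072 without control replicate 1 or 2 or LPS replicate 1 or 2). A separate list of 10 cell cycle markers summed to 412, 477 and 811 CPM in control and 360, 310 and 301 CPM in LPS libraries. Its median log2 fold change was -0.84, with 0 called, and the relation of Ccnd1 to it was not tested. Of 15 STAT6 targets, 6 had the counts to be tested and 3 of these rose (9.09% over all tested genes). The count was 5 with the replicate block (15.4%), and 1 without control replicate 2, with limma-voom, and where at least 10 counts in every library were asked for. Mrc1, the gene of the mannose receptor CD206 and on the list, was at 197, 331 and 752 CPM in control and at 9.29, 10.4 and 131 CPM in LPS libraries (log2 fold change -3.08, edgeR adjusted p = 0.145, and 0.0124 with the replicate block). It is also among the 12 macrophage markers, whose summed level was highest in the libraries numbered 3, and their part in its level was not tested. It is named here after its values were seen. Ccl11, a chemokine gene for eosinophils, rose from 3.78 ± 1.25 to 78.2 ± 20.7 CPM and Il13ra2, a decoy receptor, from 0.437 ± 0.159 to 128 ± 90 CPM (SD, n = 3, edgeR adjusted p = 0.00157 and 0.00729, the latter 0.0544 without control replicate 2). Ccl22 was at the floor in control and at 37.9, 58.3 and 1.47 CPM in LPS libraries, so that LPS replicate 3 was far below the other two (edgeR adjusted p = 0.0263, and up to 0.121 without one of the libraries other than LPS replicate 3). Ccl22 and Il13ra2 were too low in control to pass the filter on low counts without their LPS libraries. Their rise was thus in part built into their being tested. Genes on these lists have inducers other than STATs, and the lists overlap.

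**Figure D4:**
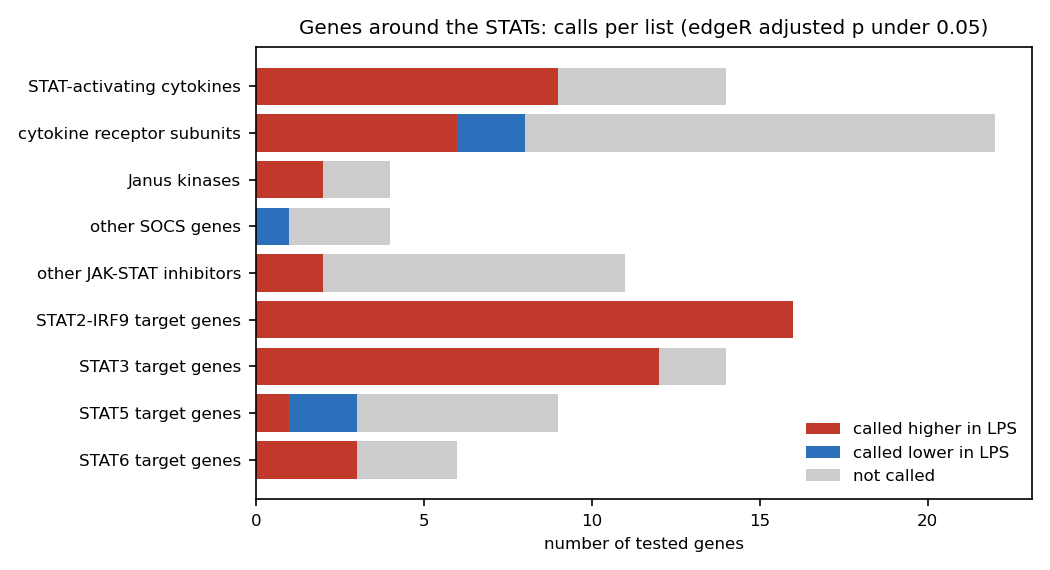
Number of tested genes (horizontal axis) in each list of genes around the STATs that were called higher, called lower or not called after LPS (edgeR adjusted p under 0.05). The STAT2-IRF9 targets (16 of 16) and STAT3 targets (12 of 14) are mostly higher, where 9.09% of all tested genes were.

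Lastly, the genes whose levels ran most nearly in parallel with each of the 9 were found by Pearson's r of log2 CPM over the 6 libraries, which share 2 groups and so follow the group difference above all. Stat2 and Socs3 paralleled each other at r = 0.9998, and Trim21, a ubiquitin ligase gene, followed both (10.3, 9.92 and 12.3 CPM in control and 54.1, 57.4 and 79.1 CPM in LPS libraries). This nearness is less exclusive than it looks, as 798 genes had r over 0.95 with Stat2 and 815 with Socs3. Nearest to Socs1 were Irg1, which makes the metabolite itaconate, and Ifit1, an interferon-induced gene, and 776 genes had r over 0.95. The nearest genes were Smim3 and Otud4 for Stat3, Phf5a and Riok2 for Stat5a, Dgcr14 and Ogg1 for Stat5b, and Mfap3 and Phb2 for Stat6. For Socs2 they were Unc119 and Zfp677, and for Cish they were Car12 and Gfpt1. The number of genes with r over 0.95 was 462 for Stat3, 324 for Cish, 266 for Stat6, 107 for Socs2, 67 for Stat5a and 35 for Stat5b.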

How the data were processed

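Per the labels and the study's methods, poly(A) RNA libraries were made with a stranded kit, reads were trimmed and filtered, and the rest were aligned to GRCm38. The submitters' processing notes name cutadapt 1.15, Bowtie2 2.3.3.1, STAR 2.5.2b, SAMtools 1.5 and featureCounts 1.5.3. The strand setting and the handling of reads with several alignments are not given in the sources used here. Values as deposited were whole-number read counts for each gene and library, which the authors had not normalized.

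Here, genes with low counts were removed with filterByExpr of edgeR 4.0.16 (R 4.3.3; minimum count 10, minimum total 15). TMM factors were computed, and LPS was compared with control in 1 edgeR quasi-likelihood F-test over all 15226 genes, two-sided, with Benjamini-Hochberg adjustment over all genes and a threshold of 0.05. CPM used TMM-corrected library sizes, and log2 CPM a prior count of 2. The code was tested on simulated data. Gene positions are from GENCODE M21, and promoters from RefSeq (GRCm38.p6).

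What a replicate number marks is not in the labels. The correlation across genes of deviations from the mean of each group was r = 0.513, 0.334 and 0.613 between control and LPS libraries numbered 1, 2 and 3, so the numbers were treated as pairs on the strength of the data alone. LPS replicate 2 correlated best with control replicate 1 (0.419).

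Alternatives were scaling by RLE, by upper quartile or by library size, filtering at 10 counts in every library or not at all, DESeq2 1.42.0, limma-voom (limma 3.58.1), the edgeR exact test, the replicate block, and leaving out every library by turns. The fit without both libraries numbered 3 was added after seeing the data. Named were the 9 genes, from each pathway list the 2 largest and the 1 smallest log2 fold change among those called whose higher group reached 5 CPM, and the 2 genes most like each of the 9. Other genes were named where a count was small. The genes and lists were chosen with earlier results of these data known. Some genes of the pathway are not reported here.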

Additional observations from a re-analysis of the deposited data

How the results depend on the processing

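The count of genes called higher was 4 and stayed at 4 to 6 under the other scalings, filters and tools, DESeq2 giving 6. It was 7 with the replicate block and 7 without both libraries numbered 3, a fit chosen after seeing the data. Without 1 library it ranged from 3 to 5. The count called lower was 0 in all of these except without LPS replicate 3, so that it ranged from 0 to 1 without 1 library, and it was 1 without both libraries numbered 3, each time Socs2. The log2 fold change of Stat5b, 0.01, changed sign with upper-quartile factors (-0.09), library size alone (-0.14), no filter (-0.01) and without LPS replicate 3 (-0.07), and ranged from -0.07 to 0.09 without 1 library. In the added fit without both libraries numbered 3 it was -0.03. The median over all tested genes was -0.12 under upper-quartile scaling and -0.18 under library size alone, against -0.02 with TMM, so that changes under those scalings are read against these shifts. With the replicate block, Stat3, Stat5a and Stat6 gained a call and no other call among the 9 genes changed. Over 9 genes and 15 alternatives, 119 of 135 results kept their direction and their side of the threshold, 9 gained a call, 3 lost one (Cish) and 4 changed sign (Stat5b). A fit without 1 library has fewer samples. Among the 9 genes, Socs1 in control had the fewest counts, 47 at the lowest, while Csf2, Csf3 and Ccl22 were at 3 counts or fewer in every control library, so that their changes have a lower bound alone.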
